A study of Mus musculus with 10 samples.

Results

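The fast and developmental myosin genes of mouse chromosome 11 were examined as 1 unit: the myosin heavy chain genes Myh1, Myh2, Myh3, Myh4, and Myh8, and the long noncoding RNA gene 2310065F04Rik, known as linc-Myh, which lies among them. These 6 genes were taken by gene family and place in the cluster and not by a filter on their values, although earlier results were known. Myh13 and the antisense genes of the cluster were left out and are treated as neighbors. All 6 members were among the 16112 genes of the deposited table. The study sequenced RNA of 3 extensor digitorum longus (EDL), 3 psoas, and 4 soleus muscles. All 10 libraries came from mice of the strain B6C3Fe a/a-Ttnmdm/J that were wild type for the titin mutation mdm, were bred from heterozygous carriers, and were 32 to 54 days old. The labels name no treatment, and the study's methods say that the mice also served in other work. By the labels, 5 libraries came from male and 4 from female mice, and soleus 3 has no sex given. The labels hold 7 animal codes, 3 of which stand on a fast muscle and a soleus library (psoas 1 and soleus 1, EDL 3 and soleus 2, psoas 3 and soleus 4). Because the study states fewer mice than codes, libraries with different codes may also share a mouse, and the p-values measure the spread between these libraries, part of which may be technical.

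A myosin heavy chain is the motor protein of the thick filament, and its isoform sets how fast a muscle fiber shortens and how much ATP it uses. In adult limb muscle, Myh4 encodes the fastest isoform (2B), Myh1 the 2X isoform, and Myh2 the slower, fatigue-resistant 2A isoform, whereas Myh3 (embryonic) and Myh8 (neonatal) are used mainly in developing and regenerating fibers. EDL and psoas are fast muscles, and soleus is a posture muscle rich in slow fibers, whose heavy chain gene Myh7 lies on another chromosome. The adult cluster genes are known to share an enhancer near linc-Myh.

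The genes lie in the order Myh3, linc-Myh, Myh2, Myh1, Myh4, and Myh8, over 230.3 kb of chromosome 11 (GRCm38, GENCODE M21). Myh3 is at chr11:67078300-67102291, linc-Myh at chr11:67112461-67120080, Myh2 at chr11:67171027-67197517, Myh1 at chr11:67200052-67224575, Myh4 at chr11:67238029-67260446, and Myh8 at chr11:67277124-67308634. The 5 myosin genes are on the plus strand and linc-Myh on the minus strand. Within 500 kb of either end, the table held 8 further genes. Of these, 9430073C21Rik and Myhas are antisense transcripts inside the cluster, and Myh13, the heavy chain gene of extraocular and laryngeal muscle, follows Myh8 at chr11:67321658-67371586.

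The adult genes and Myh8 share short stretches of sequence before their start sites, which were not found in the promoter windows of Myh3 and linc-Myh. All 6 members had a RefSeq promoter window (GRCm38.p6, 250 bases before to 50 after the annotated start). The longest run held by the windows of Myh1, Myh2, Myh4, and Myh8 was 14 bases, TTCTAATTATATCC. The run was chosen as common to these 4 windows, so its presence in them was fixed beforehand. On either strand, it was found in no other of 32851 promoter windows (4 in all, 0.0122%). Such a count describes the run and was not tested against chance. A further run of 15 bases, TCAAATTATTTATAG, chosen in the same way from Myh1, Myh4, and Myh8, was held by those 3 windows of all (0.00913%). Its end matches the consensus of the MEF2 transcription factors, which 3.19% of all windows held, and Myh2 had no match to it. The stretches below run 5′ to 3′ on the plus strand, with both runs in capitals, and overlap no annotated exon.
Myh2 (chr11:67170852-67170945): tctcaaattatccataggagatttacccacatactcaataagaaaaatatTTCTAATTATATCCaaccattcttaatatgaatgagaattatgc
Myh1 (chr11:67199882-67199985): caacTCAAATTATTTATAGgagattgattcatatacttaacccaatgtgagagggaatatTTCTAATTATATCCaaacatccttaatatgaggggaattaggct
Myh4 (chr11:67237621-67237697): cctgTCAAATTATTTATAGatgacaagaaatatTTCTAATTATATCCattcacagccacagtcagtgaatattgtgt
Myh8 (chr11:67277016-67277113): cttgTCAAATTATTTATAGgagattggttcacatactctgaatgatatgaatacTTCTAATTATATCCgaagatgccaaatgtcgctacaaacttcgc

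The stretch of Myh4 lay 47 bases from the start of Myhas, which is read in the opposite direction, and that of Myh1 lay 647 bases from the start of 9430073C21Rik. TATAAAA, the core of a TATA box, was in the windows of Myh1, Myh2, Myh4, and Myh3 on the strand of the gene, in that of linc-Myh on the other strand, and in 5.48% of all windows. Relative to the annotated start, it began at -32 in Myh1, -31 in Myh4, and -29 in Myh3, but at 10, past the start, in Myh2. Myh8 had no such run in its window. The E-box CANNTG, bound by MyoD-type factors, was in the windows of Myh4, Myh8, and Myh3 and in 72.3% of all windows. A match describes these letters only. The run common to Myh1, Myh2, Myh4, and Myh8 was upstream of genes whose levels differed in opposite directions between muscles, as described next. The further run was upstream of Myh1, Myh4, and Myh8 alone. Their log2 fold changes were -0.57, -5.16, and -1.32 in soleus vs EDL, and -0.89, -5.46, and -1.80 in soleus vs psoas. Myh1 was called in neither comparison. A link between either run and these levels was not tested.

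Total counts were 15016122 to 47825953 in EDL, 13820086 to 50431713 in psoas, and 12737971 to 26848423 in soleus. The 6 marker genes of muscle fibers were expressed in all libraries, with summed levels of 50010 to 69011 CPM (counts scaled to the library total with TMM factors) in EDL, 90483 to 112488 in psoas, and 78866 to 97504 in soleus. The summed level of 6 tendon markers was 639 to 741 CPM in EDL, 30.3 to 80.2 in psoas, and 80.9 to 415 in soleus. All 6 were lower in psoas than in EDL, each in 12 to 20 of 23 alternative fits, and 4 were higher in soleus than in psoas, each in 14 to 17 of 22. The authors quality-trimmed the reads of EDL 1, EDL 2, psoas 1, and psoas 2 and of no soleus library, so trimming and muscle are partly confounded. The paper also reports several sequencing runs and a correction for sequencing batch before its clustering of samples. Which library belonged to which run is not given in the sources used here, so no fit included the run. Within EDL and psoas, the trimmed libraries were all male and the untrimmed ones female, so trimming and sex cannot be told apart there. In whole muscle, fewer fibers of a type and less RNA per fiber cannot be told apart.

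The coding sequences of the adult genes and Myh8 are 87.9 to 91.1% identical, and each is 79.6 to 81.5% identical to Myh3 or Myh13. Of all 75-base windows of the main transcript, the read length here, 16.6% of Myh1, 16.3% of Myh2, 12.9% of Myh8, 9.68% of Myh4, 5.13% of Myh13, and 1.86% of Myh3 occurred unchanged in another of 8 sarcomeric heavy chain genes compared. With up to 2 mismatches, these shares were 44.3% for Myh1, 40.2% for Myh2, 31.6% for Myh8, 30.8% for Myh4, 13.3% for Myh13, and 10.6% for Myh3. How the authors counted reads with several alignments is not given in the sources used here, so that low levels beside a highly expressed relative are uncertain. By the paper's alignment summary, the share of such reads differed between libraries, also within each muscle. Its part in the levels of these genes was not tested.

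As a share of all counts, the 5 heavy chain genes took 5.15 to 8.17% of EDL libraries, 5.0 to 7.61% of psoas libraries, and 1.88 to 2.08% of soleus libraries. Summed per kilobase of exon (FPKM), their level was 9179 ± 1457 in EDL (SD, n = 3), 11516 ± 502 in psoas (n = 3), and 2683 ± 523 in soleus (n = 4). The order of mean FPKM was Myh4, Myh1, Myh2, Myh8, linc-Myh, and Myh3 in both fast muscles, and no 2 neighbors in that order overlapped in their values. In soleus, Myh2 was first at 1447 ± 168, followed by Myh1 at 995 ± 475, Myh4 at 202 ± 124, Myh8 at 31.2 ± 8.10, Myh3 at 7.68 ± 4.56, and linc-Myh at 2.47 ± 1.61. The values of Myh2 and Myh1, of Myh4 and Myh8, and of Myh3 and linc-Myh overlapped there. In soleus 2, Myh8 at 25.7 FPKM exceeded Myh4 at 18.1.

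**Figure D1:**
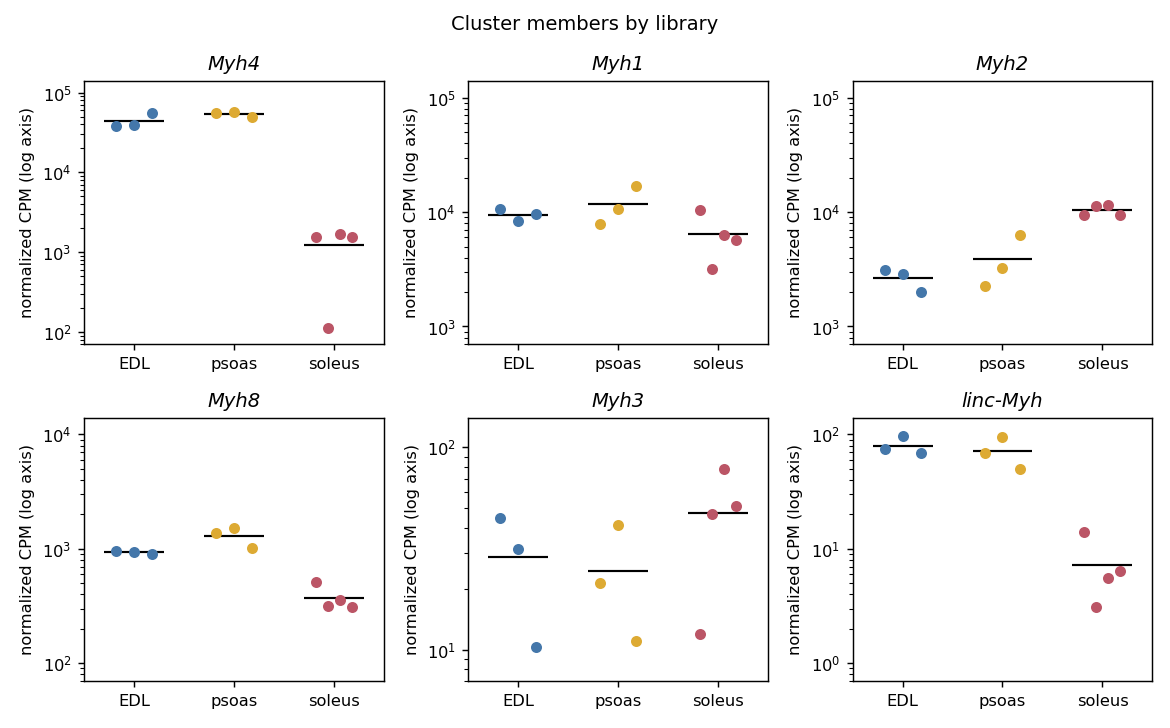
TMM-normalized CPM (log axis) of the 6 cluster members in 3 EDL, 3 psoas, and 4 soleus libraries. Points are libraries and bars are means. Myh4 and linc-Myh in soleus lie below all fast muscle libraries, Myh2 in soleus lies above them, and soleus 2 has the lowest Myh4 level, 113 CPM.

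Differential expression was tested by quasi-likelihood in edgeR, all 10 libraries being fitted together and p-values adjusted over all genes by Benjamini-Hochberg. A call needed an adjusted p under 0.01 as well as a difference of more than 2-fold. In soleus vs EDL, 4 of 6 members passed, 1 higher and 3 lower, where 5.77% of all genes passed (3.59% higher and 2.18% lower). In soleus vs psoas, 3 members passed, all lower, against 5.69% of all genes (2.99% higher and 2.71% lower). In psoas vs EDL, edgeR called 0 members, against 2.11% of all genes (0.54% higher and 1.57% lower in psoas). No member of that comparison had an unadjusted p under 0.05, and DESeq2 and limma-voom also called 0. The median log2 fold change of the members was 0.30 in psoas vs EDL, -0.95 in soleus vs EDL, and -1.35 in soleus vs psoas, beside medians over all genes of 0.01, -0.05, and 0.02. The values of 4 of 6 members did not overlap in each soleus comparison, against 29.5% of all genes in soleus vs EDL and 25.8% in soleus vs psoas. The comparisons of soleus share the soleus libraries, and each is given with its own values.

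Among the adult fast genes, Myh4 fell most. It was at 38374, 38852, and 54886 CPM in EDL, 55017, 56666, and 50083 CPM in psoas, and 1559, 113, 1692, and 1549 CPM in soleus. The soleus values lay below all others, and soleus 2 was lower than the other soleus libraries by more than a factor of 10. The log2 fold change of Myh4 was -5.16 (SE 0.73, adjusted p = 0.000986) in soleus vs EDL and -5.46 (SE 0.74, adjusted p = 0.000773) in soleus vs psoas. Among libraries whose reads were not trimmed, the differences of Myh4 on the log2 scale were -5.48 and -5.35, each fast muscle being 1 library. Within the 3 animals with both muscles, Myh4 differed by -5.14, -8.92, and -5.01 between soleus and the fast muscle, the middle value coming from soleus 2. Psoas and EDL overlapped for Myh4, with a difference of 0.29 in log2 (SE 0.69, adjusted p = 0.826).

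Myh2 went the other way. It was at 3125, 2891, and 2006 CPM in EDL, 2248, 3230, and 6308 CPM in psoas, and 9488, 11389, 11597, and 9488 CPM in soleus. All soleus values lay above those of the fast muscles, and psoas 3 was the highest of the fast libraries. The log2 fold change of Myh2 was 1.97 (SE 0.37, adjusted p = 0.00467) in soleus vs EDL, which passed, and 1.42 (SE 0.36, adjusted p = 0.0226) in soleus vs psoas, which did not. The call in soleus vs EDL held in 13 of 22 alternative fits, in which the adjusted p ranged from 8.25e-09 to 0.0690, and was lost on leaving out any of EDL 1, EDL 2, EDL 3, soleus 2, soleus 3, or soleus 4. It was also lost with trimming as a covariate (adjusted p = 0.0690), with sex as a covariate and soleus 3 left out (adjusted p = 0.0152), and with the replicate number as a block (adjusted p = 0.0197). In soleus vs psoas, Myh2 passed without psoas 3 (log2 fold change 1.94, adjusted p = 0.00505). Within the 3 animals, Myh2 was higher in soleus by 2.08, 2.5, and 0.59 on the log2 scale.

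Myh1 was the adult gene whose values overlapped in every comparison. It was at 10547, 8442, and 9563 CPM in EDL, 7813, 10655, and 17081 CPM in psoas, and 10468, 3208, 6262, and 5676 CPM in soleus. Soleus 1 lay within the EDL range, and the other soleus libraries were lower than all fast libraries. The log2 fold change of Myh1 was -0.57 (SE 0.40, adjusted p = 0.327) in soleus vs EDL, -0.89 (SE 0.40, adjusted p = 0.166) in soleus vs psoas, and 0.32 (SE 0.43, adjusted p = 0.674) in psoas vs EDL. Within animals, Myh1 differed by 0.42 on the log2 scale in soleus 1, and by -1.58 and -1.59 in soleus 2 and soleus 4, from the fast muscle.

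Because library size cancels in a ratio, the adult genes were also set against each other per kilobase. The ratio of Myh4 to Myh1 was 3.84, 4.86, and 6.06 in EDL, 7.44, 5.62, and 3.10 in psoas, and 0.157, 0.0372, 0.285, and 0.288 in soleus. The ratio of Myh1 to Myh2 was 3.79, 3.28, and 5.36 in EDL, 3.90, 3.71, and 3.04 in psoas, and 1.24, 0.316, 0.607, and 0.672 in soleus. Neither soleus ratio overlapped with the fast muscles, and soleus 2 was the lowest and, for Myh1 to Myh2, soleus 1 the highest of the 4. The mean log2 ratio of Myh4 to Myh1 differed by -5.03 in soleus vs EDL and by -5.09 in soleus vs psoas, and that of Myh1 to Myh2 differed by -2.68 and -2.48. Without soleus 2, the ratio of Myh4 to Myh1 differed by -4.37 and -4.43. With all libraries, each had an exact two-sided permutation p = 0.0571, the smallest that 4 against 3 libraries allow, and 0.114 after adjustment over the 12 tests of ratios. Psoas vs EDL gave differences of 0.06 (exact permutation p = 1, the smallest possible being 0.1) for Myh4 to Myh1 and -0.20 (exact permutation p = 0.5) for Myh1 to Myh2.

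Of the summed FPKM of the 5 genes, Myh4 made up 78.5 ± 4.30% in EDL, 78.2 ± 7.84% in psoas, and 7.15 ± 4.30% in soleus. Myh1 made up 16.4 ± 2.85%, 16.1 ± 5.72%, and 35.7 ± 11%, and Myh2 4.19 ± 1.42%, 4.72 ± 2.35%, and 55.7 ± 13.9% in the same order (SD, n = 3, 3, and 4). The mean share of Myh1 was higher in soleus, while its mean CPM and the sum of the 5 genes were lower there. In soleus, the share of Myh2 ran from 40.5% in soleus 1 to 74.1% in soleus 2, and that of Myh1 from 50.2% in soleus 1 to 23.4% in soleus 2. Without soleus 2, the Myh4 share was between 7.90 and 10.2% in every soleus library. Myh8 made up 0.870 to 1.16% of the sum by muscle mean, and Myh3 at most 0.442% in any library.

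**Figure D2:**
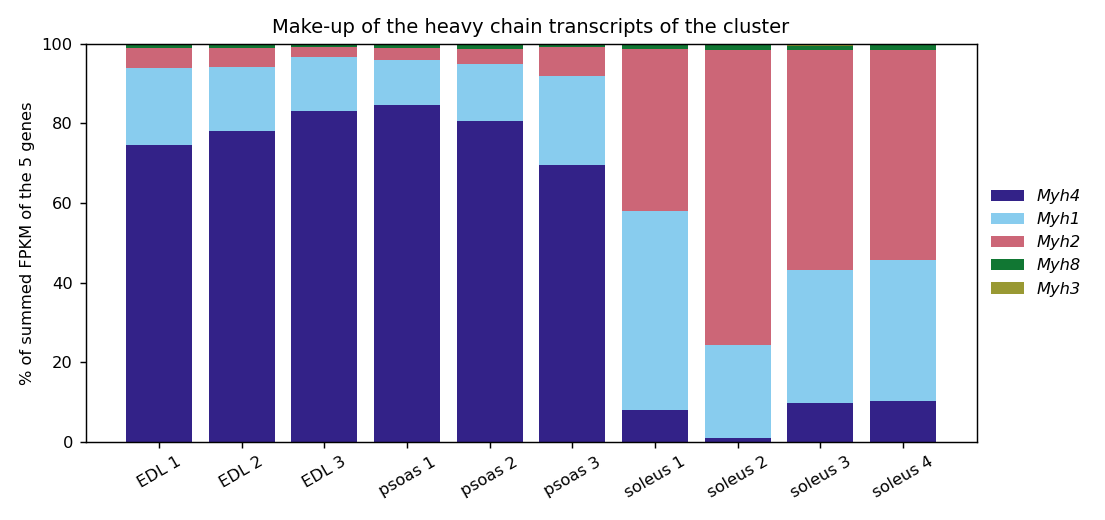
Share of Myh4, Myh1, Myh2, Myh8, and Myh3 in their summed FPKM (percent, stacked bars) in each of the 10 libraries. Myh4 makes up 69.5 to 84.6% in the fast muscles and 0.871 to 10.2% in soleus, where Myh2 makes up 40.5 to 74.1%.

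Myh8, the neonatal gene, was measured in every library and, like Myh4, was lower in soleus. It was at 961, 938, and 900 CPM in EDL, 1389, 1506, and 1015 CPM in psoas, and 510, 314, 357, and 311 CPM in soleus. The 3 muscles did not overlap, with psoas highest and soleus lowest. Myh8 was the 1 member whose psoas and EDL values did not overlap, where 29.6% of all genes did not overlap. The log2 fold change of Myh8 was -1.32 (SE 0.22, adjusted p = 0.00283) in soleus vs EDL, -1.80 (SE 0.23, adjusted p = 0.000475) in soleus vs psoas, and 0.48 (SE 0.24, adjusted p = 0.210) in psoas vs EDL. The call in soleus vs EDL held in 16 of 22 alternative fits and was lost without EDL 1, EDL 2, soleus 2, or soleus 4, with trimming as a covariate (adjusted p = 0.0217, the highest of the 22), and with the replicate number as a block (adjusted p = 0.0135). Among untrimmed libraries, Myh8 differed by -1.27 and -1.44, each fast muscle being 1 library. Psoas exceeded EDL by 0.61 among trimmed libraries (2 against 2) and by 0.17 among untrimmed ones (1 against 1). Within the 3 animals, Myh8 was lower in soleus (-1.44, -1.52, and -1.71), a narrower span than for any other member. The summed exon length of Myh8, 11772 bases, is about that of 2 coding sequences of 5811 bases, so its level per kilobase depends on the length used.

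**Figure D3:**
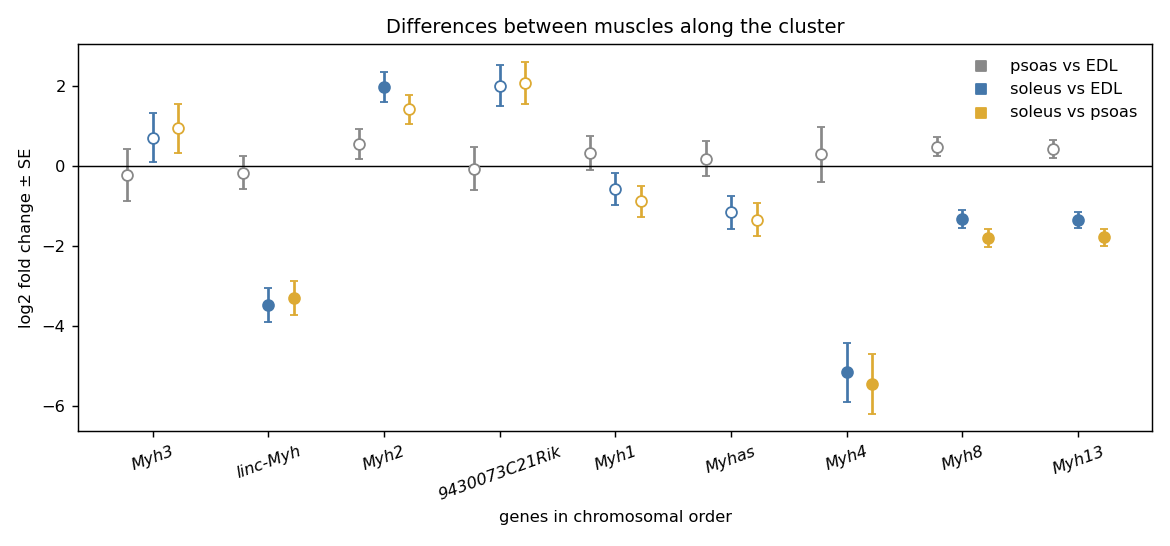
Log2 fold change ± SE (edgeR) of the 6 members, the antisense genes 9430073C21Rik and Myhas, and Myh13 in chromosomal order, for psoas vs EDL, soleus vs EDL, and soleus vs psoas. Filled points passed the thresholds (adjusted p under 0.01, more than 2-fold). In both soleus comparisons, Myh4 and linc-Myh have the lowest values, and Myh3, Myh2, and its antisense 9430073C21Rik lie above 0. Of those above 0, Myh2 in soleus vs EDL alone passed. No psoas vs EDL point passed.

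Myh3, the embryonic gene, was low, with overlapping values in all muscles. It was at 44.8, 31.3, and 10.3 CPM in EDL, 21.4, 41.3, and 11 CPM in psoas, and 11.9, 47.1, 78.6, and 51.1 CPM in soleus. EDL 3, psoas 3, and soleus 1 were the lowest of their muscles. The log2 fold change of Myh3 was 0.70 (SE 0.62, adjusted p = 0.439) in soleus vs EDL, 0.94 (SE 0.62, adjusted p = 0.363) in soleus vs psoas, and -0.24 (SE 0.65, adjusted p = 0.851) in psoas vs EDL. Soleus 3, the highest in Myh3, came from the youngest mouse, at 32 days. Without soleus 3, the log2 fold change was 0.29 in soleus vs EDL (edgeR, adjusted p = 0.787) and 0.55 in soleus vs psoas (adjusted p = 0.636). The part of age was not tested. Of the fast muscles, the untrimmed libraries, which were also the female ones, were those with low Myh3. Among untrimmed libraries, soleus was higher by 2.19 than EDL and by 2.1 than psoas, each fast muscle being 1 library. Within animals, Myh3 differed by -0.84, 2.19, and 2.22 between soleus and the fast muscle, so the direction was not shared. With trimming as a covariate, the log2 fold change of Myh3 was 2.06 (adjusted p = 0.0958) in soleus vs EDL and 2.23 (adjusted p = 0.0526) in soleus vs psoas, and Myh3 was still not called.

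The developmental genes were also compared with each other. The ratio of Myh8 to Myh3 per kilobase was 11, 15.4, and 44.8 in EDL, 33.4, 18.7, and 47.6 in psoas, and 22.1, 3.44, 2.34, and 3.13 in soleus. The 3 soleus libraries other than soleus 1 were below all fast libraries, and soleus 1 was within them. The exact permutation p was 0.171 for soleus vs EDL, 0.114 for soleus vs psoas, and 0.4 for psoas vs EDL, and adjusted over the 12 tests 0.257, 0.196, and 0.48. The mean log2 ratio differed by -2.02 in soleus vs EDL and -2.68 in soleus vs psoas, and without soleus 1 by -2.75 and -3.40.

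The noncoding gene linc-Myh followed the direction of Myh4. It was at 74.98, 96.9, and 68.2 CPM in EDL, 68.8, 95.6, and 49.8 CPM in psoas, and 14.0, 3.08, 5.58, and 6.44 CPM in soleus. All soleus values were below those of the fast muscles, soleus 2 being the lowest and soleus 1 the highest of them. The log2 fold change of linc-Myh was -3.47 (SE 0.42, adjusted p = 0.000406) in soleus vs EDL, -3.31 (SE 0.42, adjusted p = 0.000506) in soleus vs psoas, and -0.16 (SE 0.42, adjusted p = 0.839) in psoas vs EDL. It was called against both fast muscles in all 22 alternative fits. Among untrimmed libraries, with 1 library of each fast muscle, the differences were -3.23 and -2.77, and within the 3 animals -2.29, -4.47, and -2.95.

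The decrease of linc-Myh was smaller than that of Myh4. Per kilobase, linc-Myh was at 0.00403, 0.00514, and 0.00256 of the Myh4 level in EDL, 0.00258, 0.00348, and 0.00205 in psoas, and 0.0186, 0.0563, 0.00681, and 0.00858 in soleus. The soleus ratios were above all others, and that of soleus 2, where Myh4 was lowest, was the highest. The mean log2 ratio was 2.06 higher than in EDL and 2.57 higher than in psoas (exact two-sided permutation p = 0.0571 each, the smallest possible, 0.114 adjusted over the 12 tests), and without soleus 2 it was 1.45 and 1.96 higher. Psoas vs EDL gave -0.51 (exact permutation p = 0.3). Between libraries of the same number, psoas minus EDL was -0.64, -0.56, and -0.32, the same sign in all 3 pairs (exact two-sided paired permutation p = 0.25, the smallest that 3 pairs allow). The animal codes differ within each pair, so the number is not a known match by animal.

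**Figure D4:**
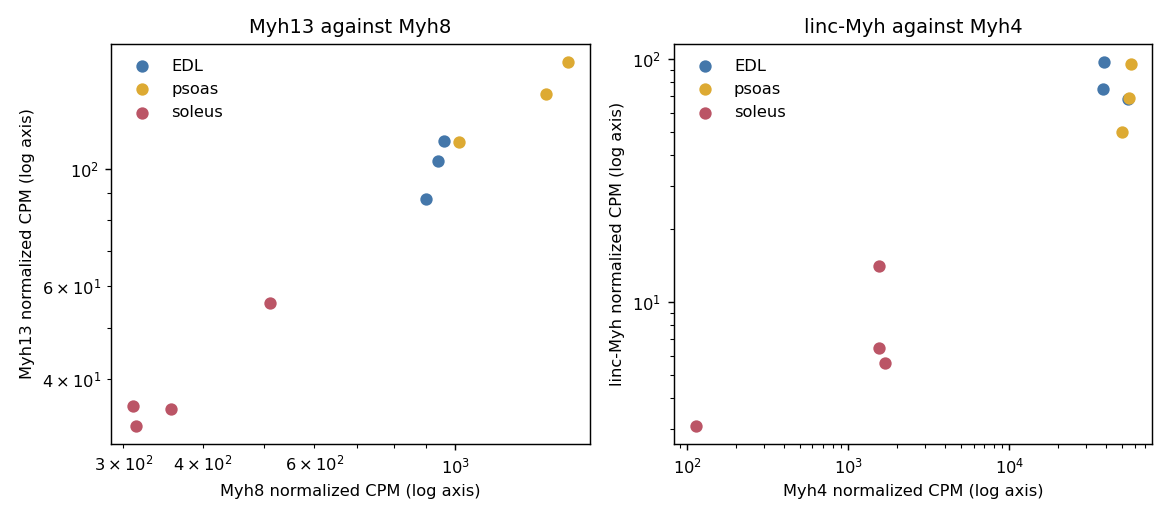
TMM-normalized CPM (log axes) of Myh13 against Myh8 (left) and of linc-Myh against Myh4 (right), 1 point per library. Myh13 rises with Myh8 across the 10 libraries at 9.73 to 11.7% of its counts, and in the right panel the soleus points lie apart from the fast muscles, with soleus 2 lowest on both axes.

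Past Myh8, the next heavy chain gene had the levels closest to a member of all genes ranked. Myh13 was at 113, 104, and 87.5 CPM in EDL, 138, 159, and 113 CPM in psoas, and 55.6, 32.6, 35.1, and 35.6 CPM in soleus. Its counts were 10.7 ± 0.691% of those of Myh8 (SD over 10 libraries), with muscle means of 10.8, 10.5, and 10.6%. Myh13 was called lower in soleus vs EDL (log2 fold change -1.35, adjusted p = 0.00176) and soleus vs psoas (-1.78, adjusted p = 0.000358). Of the 75-base windows of Myh13, 2.87% occurred unchanged in Myh8 and 8.22% with up to 2 mismatches, and whether reads of Myh8 were counted for Myh13 was not tested.

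The antisense genes were read beside the sense genes they overlap. The gene 9430073C21Rik shares 237 exon bases with Myh2, which are 10.9% of its own exons, and was at 5.32, 4.33, and 2.14 CPM in EDL, 1.82, 2.79, and 7.08 CPM in psoas, and 13.1, 29.1, 10.2, and 11.7 CPM in soleus. Its soleus values lay above all others, with log2 fold changes of 2.01 vs EDL (adjusted p = 0.0202) and 2.09 vs psoas (adjusted p = 0.0216), neither of which passed. Myhas shares 515 exon bases with Myh1, 25.4% of its own, and was at 28.8, 27.3, and 49.1 CPM in EDL, 19.8, 28.5, and 71.2 CPM in psoas, and 24.8, 13.6, 12.6, and 11.7 CPM in soleus. Myhas did not pass, with -1.16 vs EDL (adjusted p = 0.0719) and -1.34 vs psoas (adjusted p = 0.0526). The kit marks strand, but the strand setting of the counting is not given, so sense and antisense reads may not be separate in these counts. Of the other 5 neighbors (Tmem220, Adprm, Sco1, Gas7, and Dhrs7c), Dhrs7c passed, lower in soleus vs psoas (-1.33, adjusted p = 0.00949), a call that held in 11 of 22 alternative fits and was lost, among others, without any of EDL 1, EDL 2, psoas 1, psoas 2, psoas 3, soleus 2, soleus 3, or soleus 4. In all, 0, 1, and 2 of 8 neighbors passed in psoas vs EDL, soleus vs EDL, and soleus vs psoas.

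Outside the cluster, the genes whose levels were most like those of each member were ranked by the root mean square (RMS) difference of log2 CPM over the 10 libraries, after centering each gene on its mean, among 12664 genes with a mean of at least 1 CPM. For Myh4, whose own RMS deviation from its mean was 3.07, these were Mstn (RMS 0.467), which encodes the inhibitor of muscle growth myostatin, the calcium channel subunit gene Cacna2d4 (0.837), and Pvalb (0.945), the calcium buffer of fast fibers. Mstn averaged 59.8 CPM in EDL, 92.4 in psoas, and 2.34 in soleus. In soleus 2, where Myh4 stood at -6.39 log2 units from its mean, Mstn stood at -5.64, Cacna2d4 at -4.34, and Pvalb at -4.16. In soleus 3, where Myh4 stood at -2.49, Pvalb was about as low as in soleus 2, at -4.12. These genes were chosen by their likeness over the same libraries, so their low values there are no independent support.

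The closest genes to Myh8 were Myh13 (RMS 0.089), the fast alkali light chain gene Myl1 (0.180), and Ankrd9 (0.200), whereas the RMS deviation of Myh8 from its own mean was 0.828. The closest to linc-Myh were Gdap1 (0.386), which acts at mitochondria, and Slc16a3 (0.449), the lactate exporter MCT4, against an RMS deviation of 1.82. For Myh2 these were 2310020H05Rik (0.251), Aox1 (0.265), and Coq8a (0.278), which acts in coenzyme Q synthesis, against 0.962. For Myh1 they were Pcgf6 (0.266), Prss23 (0.338), and Mettl18 (0.346), against 0.620. For Myh3 they were Cp (0.510), Ces5a (0.570), and Oscp1 (0.615), against 0.994. Inside the cluster, the same measure was 0.483 between 9430073C21Rik and Myh2, 0.439 between Myhas and Myh1, 1.41 between linc-Myh and Myh4, and 1.07 between linc-Myh and Myh8. Likeness here describes the same 10 libraries, which share muscle and depth.

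**Figure D5:**
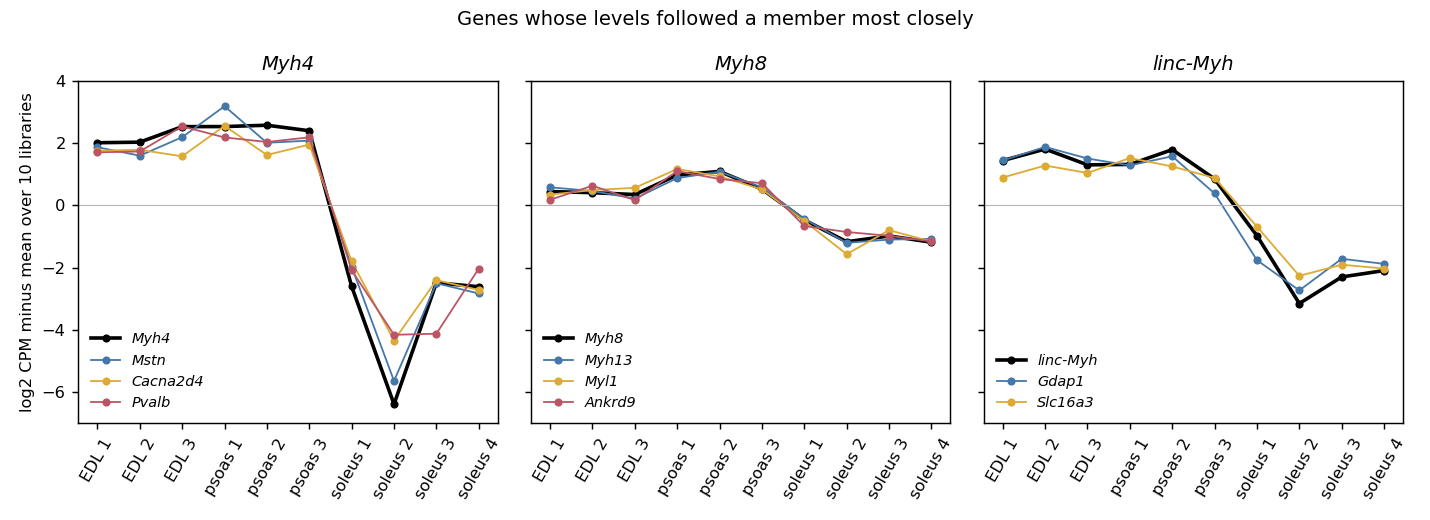
Log2 CPM of Myh4, Myh8, and linc-Myh (black) and of the genes most like each, minus each gene's mean over the 10 libraries; lines join the values of 1 gene. In soleus 2, Myh4 lies at -6.39 and Mstn at -5.64, while Myh8 and its closest genes lie between -1.57 and -0.85.

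The contractile partners of the fast heavy chains were lower in soleus, although not all passed. Of 12 genes of the fast program, 8 were lower and 0 higher in soleus vs EDL (median log2 fold change -1.64, all genes -0.05), and 9 were lower in soleus vs psoas (median -1.87). Pvalb (-4.80), the Z-disk gene Actn3 (-3.63), the thick filament gene Mybpc2 (-3.40), and the regulatory light chain gene Mylpf (-1.71) had the strongest decreases vs EDL. In psoas vs EDL, 0 of 12 passed in edgeR, with 3 at an unadjusted p under 0.05 and 0 in DESeq2 and limma-voom. All 11 genes of the slow program were higher in soleus than in both fast muscles (medians 7.07 and 7.99), led vs EDL by the light chain gene Myl3 (8.20), the heavy chain gene Myh7 (7.58), and the troponin genes Tnnc1 (7.23) and Tnni1 (7.22). In psoas vs EDL, 0 passed in edgeR (7 at an unadjusted p under 0.05, 4 in DESeq2, and 1 in limma-voom). Of 5 other sarcomeric heavy chain genes, 3 were higher in soleus in both comparisons, Myh7, Myh6 (6.72 vs EDL), and Myh7b (2.62 vs EDL), 1 was lower, Myh13, and in psoas vs EDL 0 passed in edgeR (4 at an unadjusted p under 0.05, 4 in DESeq2, and 0 in limma-voom).

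Of 16 known regulators of the fast myosin genes, 2 were higher and 3 lower in soleus vs EDL, 1 was higher and 4 lower in soleus vs psoas, and 1 was higher in psoas vs EDL. The homeobox gene Prox1, known for its role in slow fibers, rose by 3.87 on the log2 scale (adjusted p = 0.000146) in soleus vs EDL and 2.93 in soleus vs psoas. The large Maf genes Mafa and Maf, known as activators of Myh4, were lower in soleus by -3.43 and -2.23 vs EDL and by -3.27 and -2.67 vs psoas. Eya4, a transcriptional coactivator, was lower by -2.29 and -2.54. Vgll2, a TEAD cofactor, rose by 1.42 in psoas vs EDL and 2.16 in soleus vs EDL. The first call held in 16 of 23 alternative fits and was lost without EDL 1, EDL 2, psoas 1, or psoas 3, in the fit of those muscles alone, and with the replicate number as a block, whereas the second held in all 22. Sox6, a repressor of slow genes, was lower in soleus vs psoas (-1.53). Mef2c, a MEF2 factor, did not pass in any comparison.

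Of 15 developmental and regenerating fiber genes, 11 were in the table (Chrng, Mymk, Mymx, and Dlk1 were not). In soleus vs EDL, Myl6b was higher (5.22) and Actc1 lower (-3.49), and in soleus vs psoas Myl6b (5.15), Ncam1 (1.85), and Tnnt2 (1.72) were higher. Myl6b encodes a light chain that adult slow fibers also use. The call of Actc1 held in 11 of 22 alternative fits and that of Tnnt2 in 7. In psoas vs EDL, 0 of 11 passed in edgeR (4 at an unadjusted p under 0.05, 3 in DESeq2, and 1 in limma-voom). Myog (0.41, adjusted p = 0.491) and Pax7 (1.05, adjusted p = 0.138), which mark differentiating myoblasts and satellite cells, did not pass in soleus vs EDL.

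Markers of other cells also differed between these muscles. Of 6 muscle fibroblast markers, 1 was lower in psoas vs EDL, 3 were lower in soleus vs EDL, and 0 passed in soleus vs psoas (0 at an unadjusted p under 0.05 and 0 in DESeq2 and limma-voom), with summed levels of 1929 to 3450 CPM in EDL, 621 to 957 in psoas, and 636 to 1242 in soleus. The psoas vs EDL call, of Dcn, held in 13 of 23 alternative fits and was lost with the replicate block, and those in soleus vs EDL, of Dcn, Pdgfra, and Lum, held in 18, 13, and 8 of 22. Of 5 macrophage markers, Mrc1 was lower in psoas than in EDL (15 of 23 alternative fits) and in soleus than in EDL (11 of 22, adjusted p up to 0.130), and 0 passed in soleus vs psoas (0 at an unadjusted p under 0.05, 0 in both other tools). No tendon marker passed in soleus vs EDL (0 of 6 in edgeR, DESeq2, and limma-voom, 5 at an unadjusted p under 0.05). Of 6 muscle fiber markers, 2 were higher in soleus vs EDL, 1 was higher and 1 lower in soleus vs psoas, and 0 passed in psoas vs EDL (4 at an unadjusted p under 0.05, 1 in DESeq2, 0 in limma-voom). No adipocyte, erythroid, or Schwann cell marker passed in edgeR in any comparison, and DESeq2 called 2 adipocyte markers in each soleus comparison. Of the erythroid markers, 4 of 5 are globin genes, which the library kit depletes, so their levels do not measure the share of erythroid cells. At an unadjusted p under 0.05 there were 1, 6, and 5 of 6 adipocyte, 0, 1, and 5 of 5 erythroid, and 1, 0, and 1 of 5 Schwann cell markers in psoas vs EDL, soleus vs EDL, and soleus vs psoas. The part of these cells in the values of the cluster genes was not tested.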

How the data were processed

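RNA was prepared with an Illumina stranded total RNA kit with removal of ribosomal and globin RNA, and the authors sequenced read pairs, trimmed 4 libraries with Trimmomatic 0.32, aligned with TopHat2 2.1.1 to GRCm38.p4, and counted reads per gene in R. The deposited values are raw counts of 16112 genes, each of which had 10 reads or more in 3 or more libraries. The strand setting and the handling of reads with several alignments are not given in the sources used here.

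Samples were grouped by the muscle in their labels. Counts were fitted with edgeR 4.0.16 (R 4.3.3, TMM, quasi-likelihood F test, no covariate), and p-values were adjusted over all genes. DESeq2 1.42.0 gave FPKM from summed exon lengths of GENCODE M21 and, with limma 3.58.1, alternative fits. Further alternatives were other normalizations and filters, covariates for trimming, sex, replicate number, and animal, thinned counts, and fits without each library. The block fit of EDL and psoas alone and the ratios by pairs were chosen after seeing the data. Ratios were compared with exact permutation tests (scipy 1.17.1). On simulated counts for soleus vs EDL, edgeR recovered 196 (98%) of the 200 genes given a log2 change of 3, among 16112, with 2 false calls. The changed genes were drawn from those with higher counts, and smaller changes were not simulated. This share therefore does not measure recovery of changes as small as those of Myh2 and Myh8. Coding sequences were aligned with biopython 1.88. Depth bounds the precision of low levels, and the fitted errors include counting error.

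Same-numbered EDL and psoas libraries deviated together from their muscle means (correlations 0.278, 0.124, and 0.504 over all genes). The numbers were therefore used to match these muscles in the block fit of EDL and psoas alone and in the ratios by pairs. Such libraries carry different animal codes and share age, sex, and trimming. Differently numbered libraries were not compared, so the correlations cannot show that these libraries share a mouse. For soleus, number 1 deviated with EDL 1 (0.315) and with psoas 1 of the same animal (0.313), but numbers 2 and 3 did not (-0.135 and -0.019 with EDL; -0.195 and -0.049 with psoas), so the numbers were not taken to pair soleus.

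Genes named are the members, all genes of the table within 500 kb, the 3 genes most like each member, and up to 4 called genes of each list with the largest change. Others were named after their values were seen (Vgll2, Sox6, Mef2c, Myog, Pax7, Dcn, Pdgfra, Lum, Mrc1, and genes named beside a count). 1 gene taken by this rule is not reported here. The members and lists were chosen with earlier results of these data known.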

Additional observations from a re-analysis of the deposited data

Results flagged for a closer look

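Myh4 in soleus 2 was at 113 CPM, far from the other 3 soleus libraries (Dixon's ratio 0.909, above the 95% critical value for 4 libraries). It was the 1 such value among 15 series of 4 soleus values tested, and chance flags about 1 in 20. Without soleus 2, Myh4 was still called lower than in both fast muscles. Among the members, linc-Myh and Myh1 also had their lowest value in soleus 2, whereas Myh8 at 314 CPM was close to soleus 4 at 311 CPM.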

How the results depend on the processing

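The members' calls in soleus vs psoas, and those of Myh4 and linc-Myh in soleus vs EDL, kept their direction and threshold side in all alternatives. Myh2 in soleus vs psoas, not called in the main fit, passed in DESeq2 (1.4), limma-voom (1.51), and limma-voom with the animal as a random effect (1.5). Myh2 also passed there without psoas 3 and at an adjusted p under 0.05. In psoas vs EDL, 0 members were called in every alternative, but Myh1, Myh3, Myh4, and linc-Myh each changed sign in at least 1. For example, Myh4 went from 0.29 to -0.24 with the animal as a random effect, and Myh1 from 0.32 to -0.04 without psoas 3. In soleus vs EDL, 4 members were called, but 2 with trimming as a covariate and 2 with the replicate block, and 2 to 4 on leaving out 1 library, Myh2 and Myh8 being those lost (2 without EDL 1, EDL 2, soleus 2, or soleus 4). With the replicate block, Myh2 was at 1.98 (adjusted p = 0.0197) and Myh8 at -1.26 (adjusted p = 0.0135), and the block changed no other call of a member, also in the fit of EDL and psoas alone. Of the soleus numbers, 1 marks an animal shared with psoas 1, and the others mark none. The cause of the lost calls was not tested. Over all genes, edgeR called 340, 929, and 917 genes in psoas vs EDL, soleus vs EDL, and soleus vs psoas, DESeq2 1095, 1520, and 1382, and the block fit 146, 586, and 539. Leaving out 1 library gave 61 (without psoas 2) to 963 (without EDL 3) genes in psoas vs EDL, 385 (without EDL 1) to 1511 (without EDL 3) in soleus vs EDL, and 493 (without psoas 2) to 964 (without EDL 3) in soleus vs psoas. Upper-quartile normalization moved the median over all genes in soleus vs EDL from -0.05 to -0.14, and no member changed direction. In the untrimmed libraries alone, the log2 ratios in psoas vs EDL were -0.97 for Myh4 to Myh1 and -0.82 for Myh1 to Myh2, 1 library against 1, and no other ratio moved by more than the spread between libraries. Of the share values, 16 of 110 moved, among them Myh8 with coding length (1.66% in EDL) and Myh2 in soleus with Myh7 in the sum (38.2%). The 3 or 4 libraries per muscle set the smallest p of a ratio, and depth was varied, by thinning, for the fits alone.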
